A study of Mus musculus with 16 samples.

Results

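The spinal cord caudal to a clip injury was compared with uninjured cord, gene by gene, in 8 of the 16 libraries of a mouse RNA sequencing study. The libraries were taken by their labels: 4 from the segment below the injury, called below 1 to 4, and 4 from uninjured cord, called uninjured 1 to 4. The segment below was the caudal 3 mm of a 9 mm stretch centered on a contusion and compression of the lumbar cord at L1/L3 with an 8 g Fejota clip, collected on day 30. The uninjured libraries came from 9 mm of cord (T11 to S1), the whole stretch, processed as 1 piece; their time label reads 30 days after injury too, and they were taken as uninjured from their titles. All groups were female mice of 12 weeks, of a strain spelled C57BL7J in the labels, with no transgene named. The other 8 libraries, 4 from the epicenter and 4 from the segment rostral to it (above), serve only as points of reference. Whether the 4 libraries of a group stand for 4 animals is not stated in the labels; p-values therefore measure only how far these samples spread, and that spread may be technical.

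A contusion kills tissue at the impact and cuts the long tracts that pass it. Below it, axons that ran down from the brain degenerate in place, and microglia and blood-borne macrophages take up their myelin, whose sterols must be stored, exported or passed on. Astrocytes become reactive, fibroblasts can lay down collagen, and Schwann cells, the myelin-forming cells of peripheral nerve, can enter the injured cord and wrap central axons, while local neurons lose descending input but may otherwise survive.

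The libraries held 73735679 to 90004371 counts in the segment below and 65627900 to 80342399 counts in uninjured cord. By these totals, 3 counts, the upper limit at 95% confidence where none was counted, equal 0.0333 to 0.0457 CPM (counts-per-million). This limit covers counting error only. The CPM of genes are scaled by TMM normalization factors as well, which were 0.943 to 1.06 in these libraries. Rows known to take ribosomal RNA reads (Lars2, AY036118 and Gm26917) held 1.82 to 2.65% of the counts below and 3.24 to 3.76% in uninjured cord, and their part in the results was not tested. The tissue label fits its markers: Mbp of myelin, Gfap of astrocytes, Chat of motor neurons and Hox genes of the caudal cord were detected in all 8 libraries. Of the 151 genes singled out by rule, 13 overlap a neighbour over more than 10% of their exons by GENCODE M21, and the library kit does not mark the strand: Apoc2 (79.5%) and Ctsd (34.4%) on the same strand, and Cdr1 (100%), Hoxa11 (35.0%), Rarres2 (33.6%), Nefl (32.8%) and Ctsl (26.8%) on the opposite one have the largest overlaps. Reads of near-identical copies, such as Lyz2, Tpsb2, Ifit3, C4b and the globins, may be split or lost between them.

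The below libraries did not lie together. On the first principal component of all tested genes, which held 66.4% of the variance, below 1, 2, 3 and 4 lay at 34.2, -9.98, 112 and 42.1, uninjured libraries between -99.5 and -89.9, epicenter libraries between 87.9 and 105.2 and libraries above between -54.9 and -18.1. Below 3 thus lay past every epicenter library, and below 2 nearest to uninjured cord. Below 3 also stood alone on the second component, at 63.7. Spearman's rho across genes was 0.950 to 0.971 between below 3 and the other 3, 0.990 to 0.995 among those 3, and at least 0.995 among uninjured libraries. In 415 of 23769 genes below 3 exceeded each of the other 3 by at least 2-fold, and in 1537 it was lower than each by as much. Counts are therefore given with and without it. Of the 121 named genes called with all libraries, 2 did not pass without below 3, Aqp4 and Gfra1, a receptor for GDNF, and 12 other named genes passed only without it.

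**Figure D1:**
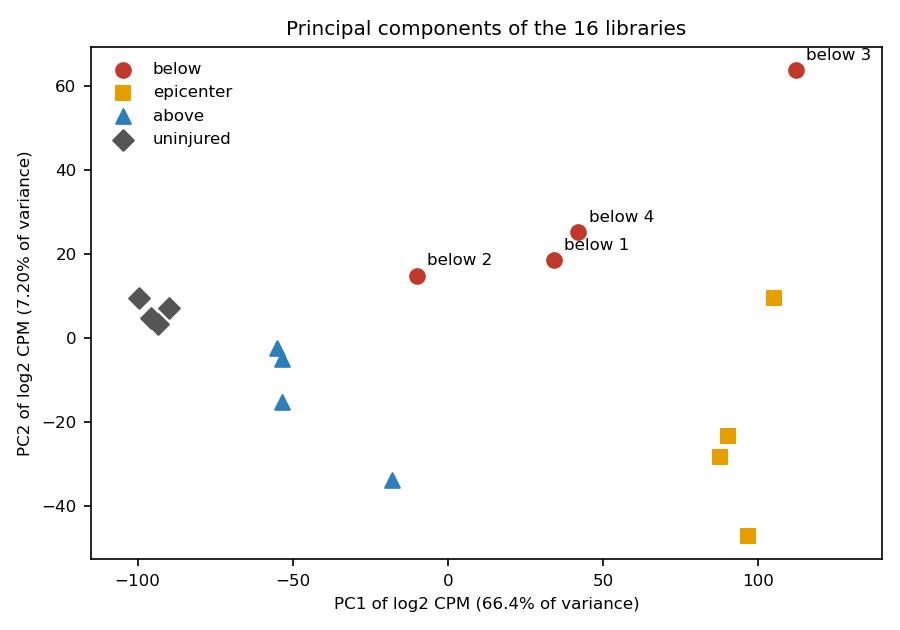
Scores of the 16 libraries on the first and second principal components of log2 CPM, by group; the horizontal axis holds 66.4% of the variance. The 4 below libraries spread between -9.98 and 112 on the horizontal axis, and the 4 uninjured libraries lie between -99.5 and -89.9.

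Of 23769 genes tested, 9346 (39.3%) differed between the segment below and uninjured cord by edgeR's quasi-likelihood test at an adjusted p under 0.05: 5603 (23.6%) rose and 3743 (15.7%) fell. Without below 3, 4811 (20.2%) rose and 3607 (15.2%) fell. Calls in the same direction in both numbered 7804, calls in opposite directions 0, with 1542 genes called with below 3 alone and 614 without it alone. Scaling by library totals alone moved the median of all genes to 0.14 on the log2 scale, and the split to 7615 higher and 1421 lower; a fit of the 8 libraries alone called 4765 higher and 1811 lower.

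The response was lopsided. Among called genes, 1398 rose by a log2 fold change of at least 2 and 22 fell by as much, and at a log2 fold change of at least 4 the counts were 336 and 1. The median log2 fold change was 1.01 among genes that rose and -0.49 among genes that fell. For the same genes it was 0.78 and -0.38 in the fit without below 3. Within the below group, below 3 was the highest library in 83.9% of the raised genes and the lowest in 83.7% of the lowered genes, and below 2 was the lowest in 78.0% of the raised and the highest in 74.8% of the lowered. For most called genes below 2 was thus mildest and below 3 most changed, with below 1 and 4 between. Interferon-response, red blood cell, central myelin and many meningeal genes, described later, had other orders. In 5434 genes (22.9%) every below library exceeded every uninjured one, and in 4937 (20.8%) every below library was lower.

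**Figure D2:**
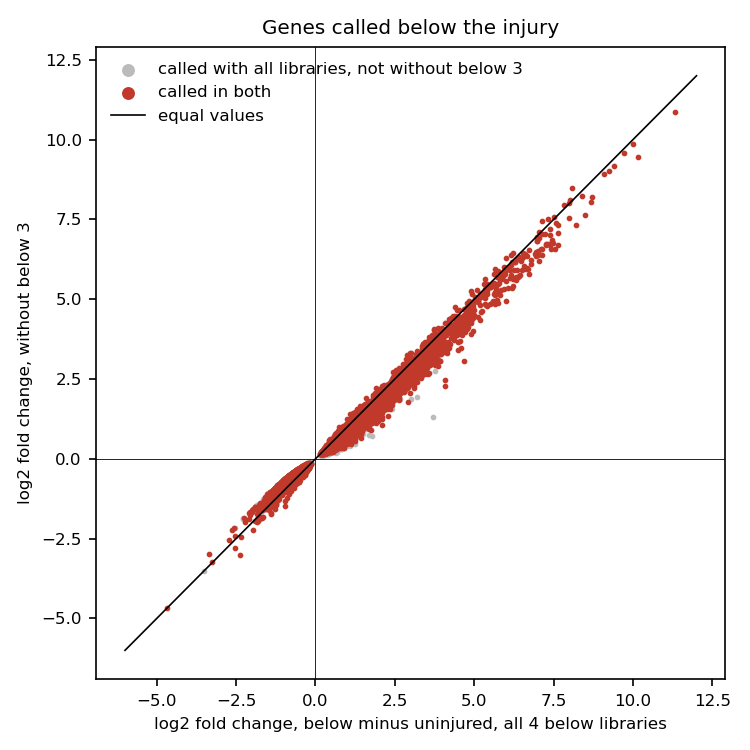
Log2 fold change, below minus uninjured, with all 4 below libraries (horizontal) and without below 3 (vertical), for the 9346 called genes. No gene called in both changes direction. The median of the genes raised with all libraries is 1.01, and 0.78 for the same genes in the fit without below 3.

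Genes of phagocytes led the response: all 16 of 16 list members rose, against 23.6% of all genes, with a median log2 fold change of 5.21 (4.50 without below 3, where all 16 rose again). Gpnmb (mm10 chromosome 6, 49036518 to 49058182), a membrane glycoprotein of phagocytes full of lipid, had 727, 106, 2270.5 and 794 CPM in below 1 to 4, against 1.78, 4.24, 2.22 and 2.61 CPM in uninjured 1 to 4. Below 3 was far the highest and below 2 the lowest, and even below 2 stood well over every uninjured library. The fitted log2 change, with its SE, was 8.49 ± 0.78 (edgeR adjusted p = 2.66e-06), and 7.64 without below 3. Atp6v0d2, part of the proton pump in osteoclasts and macrophages, had the largest fitted change, with 38.8, 5.21, 71.7 and 45.0 CPM below and 0, 0.0276, 0.0258 and 0 CPM in uninjured cord. Lyz2, lysozyme, had 935, 191, 3156 and 1127 CPM below, against 6.14, 12.1, 6.06 and 7.33 CPM in uninjured cord. Both kept the order of libraries seen for Gpnmb, and neither overlapped between groups. Apoe, the main lipid carrier of brain and cord, reached 5751, 2687, 15862 and 6451 CPM below, against 1046, 1034, 1144 and 1166 CPM in uninjured cord. In bulk RNA, more cells of a type and more RNA per cell cannot be told apart, here or in any list that follows.

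The 12 largest increases, like the 12 largest decreases, were taken among genes called with and without below 3. They had no overlap and a mean of at least 1 CPM. Outside this rule, a T and NK cell gene reached a log2 fold change of 8.02. Of the 12, 8 others follow, with log2 fold changes and their SE in parentheses. They were Mmp12, macrophage elastase (8.72 ± 0.67), Tlr8, an endosomal receptor for RNA (8.68 ± 0.93), and Cd5l, a secreted macrophage protein (7.64 ± 0.89). Also among them were Msr1, a scavenger receptor for modified lipoprotein (7.62 ± 0.76), and the apolipoproteins Apoc4 (8.19 ± 0.97) and Apoc2 (7.55 ± 0.88). The last were Cd200r4, a receptor of myeloid cells, and Mmp27, a matrix metalloproteinase. Cd200r4 held 1923 counts over the below libraries and 1 over the uninjured, a ratio of 1609 in CPM (95% counting interval 288 to 63568). Mmp27 held 360 and 0 counts, so it was at least 100.4-fold higher below, with 3 counts over the uninjured group as the floor.

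The remaining 2 of the 12 were mast cell proteases. Tpsb2, a tryptase, had 1.88, 0.190, 2.10 and 2.47 CPM in below 1 to 4, and Cpa3, carboxypeptidase A3, had 1.64, 0.0843, 1.72 and 2.01 CPM, against 0 CPM in every uninjured library for both. Below 2 was the low library in both, and the other 3 were close to each other, so below 3 did not stand out here. Against the floor of 3 counts over the uninjured group, Tpsb2 was at least 149.7-fold and Cpa3 at least 122.7-fold higher below, with edgeR adjusted p = 0.000124 and 0.000215.

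Markers of resting microglia moved less and not as one. Of 12 members, 8 rose and 1 fell, against 23.6% and 15.7% of all genes, with a median of 1.30. The share that fell was under that of all genes. P2ry12, a purine receptor of resting microglia, had 26.2, 22.0, 19.8 and 27.0 CPM below, against 22.5, 22.3, 19.4 and 21.1 CPM in uninjured cord, and did not pass (0.16 ± 0.10, edgeR adjusted p = 0.229). Its groups overlapped. Tmem119, a microglial membrane protein, rose by 0.92 ± 0.15 and Cx3cr1, the fractalkine receptor, by 1.71 ± 0.21. Slc2a5, a fructose transporter, had 2.34, 2.49, 0.765 and 1.41 CPM below, against 2.86, 2.80, 3.36 and 3.36 CPM in uninjured cord, and fell (-0.82 ± 0.28), a call lost without below 4 or uninjured 3 or 4. Markers of monocytes and border macrophages rose in 12 of 12 cases: Ccr2, the receptor that draws monocytes from blood, had 4.01, 2.20, 6.24 and 4.41 CPM below, against 0.0970, 0.345, 0.0902 and 0.0287 CPM in uninjured cord.

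**Figure D3:**
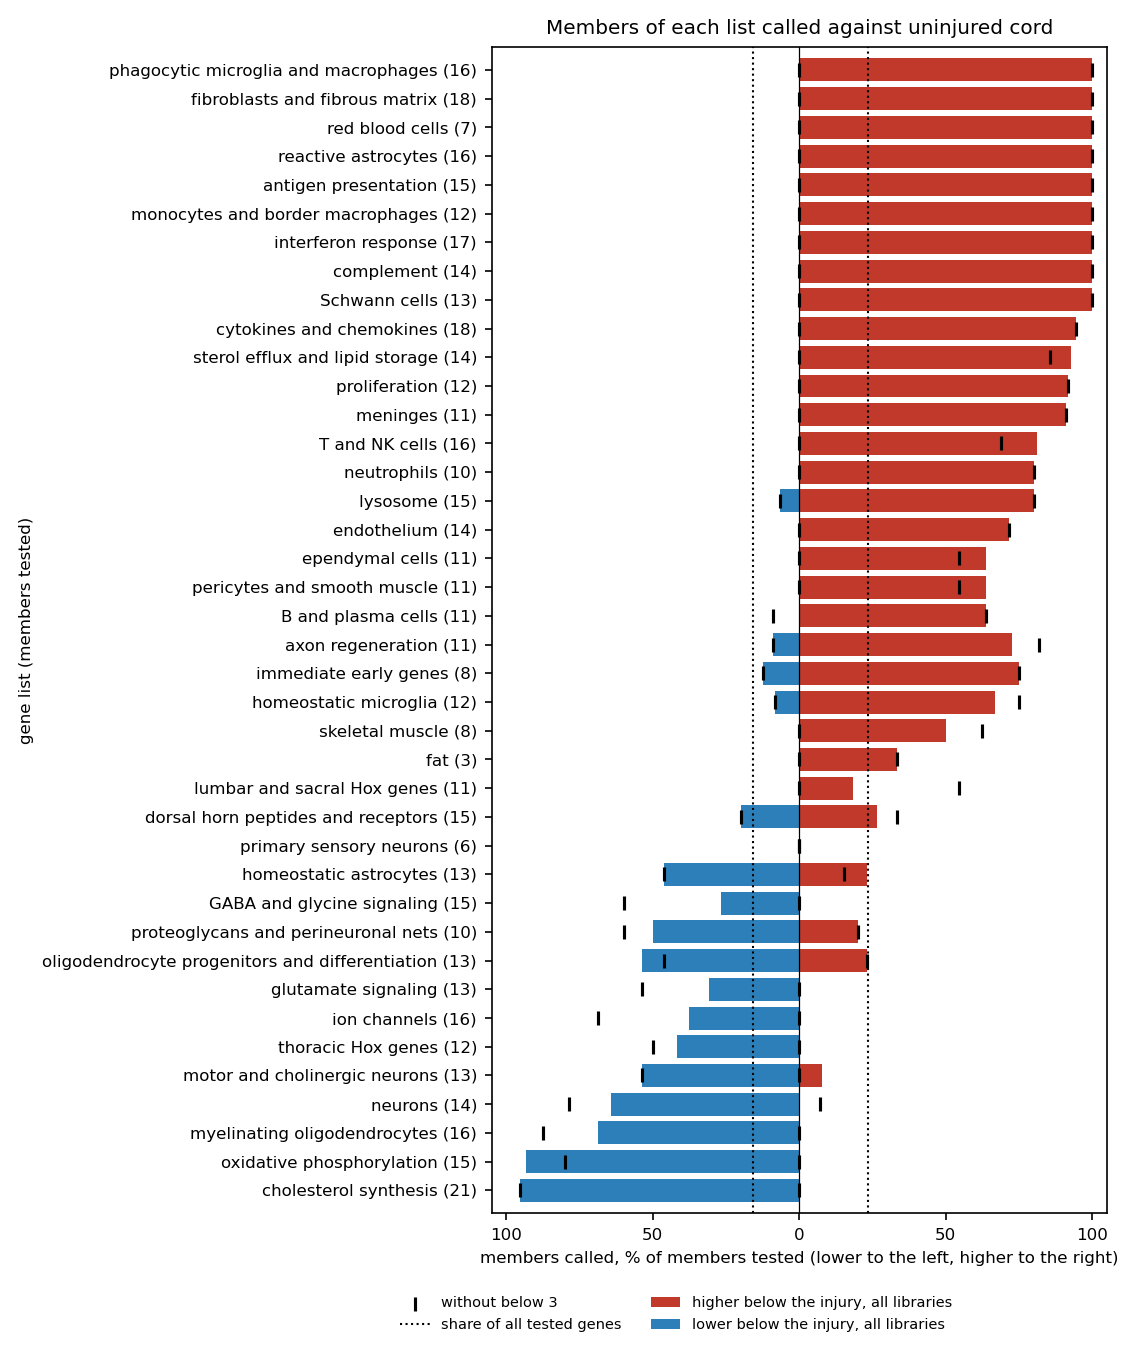
Share of each list's tested members called higher (right) or lower (left) below the injury than in uninjured cord, with ticks for the shares without below 3 and dotted lines at the shares of all tested genes, 23.6% higher and 15.7% lower. The phagocyte, reactive astrocyte, fibroblast and Schwann cell lists have every tested member higher, and cholesterol synthesis has 20 of 21 members lower.

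Immune effector genes rose with the phagocyte genes. Antigen presentation rose in 15 of 15 members (median 2.40) and complement in 14 of 14 (median 3.23), against 23.6% of all genes. The same counts held without below 3, against 20.2%. Cd74, the invariant chain of class II molecules, had 94.9, 44.4, 84.5 and 90.2 CPM in below 1 to 4, against 1.67, 3.70, 2.22 and 2.78 CPM in uninjured 1 to 4 (4.92 ± 0.38, edgeR adjusted p = 1.05e-06). Below 2 was the low library, and the other 3 were close to each other. H2-K1, a class I molecule, rose by 2.40 ± 0.23. C3, the central complement protein, had 466, 193, 902 and 498 CPM below, against 80.5, 80.9, 77.4 and 81.5 CPM in uninjured cord. C1qa, which starts the classical pathway, rose by 3.60 ± 0.37, and C4b by 2.27 ± 0.16. Of 18 cytokines and chemokines 17 rose, among them Ccl3 (4.64 ± 0.38), Ccl5 (3.87 ± 0.45) and Cxcl10 (4.19 ± 0.42), which draw monocytes and T cells.

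Interferon-response genes rose in all 17 of 17 cases, against 23.6% of all genes, with a median of 1.88 and 2.01 without below 3. Oasl2, an antiviral gene, had 29.4, 26.3, 17.0 and 18.3 CPM in below 1 to 4, against 4.83, 5.63, 4.80 and 5.33 CPM in uninjured 1 to 4 (2.14 ± 0.32, edgeR adjusted p = 0.000119). Below 1 and 2 were higher than below 3 and 4, which is not the order of the phagocyte genes. Ifit3, an inhibitor of viral translation, had 35.4, 27.5, 21.0 and 20.2 CPM below, against 9.78, 8.21, 9.53 and 7.86 CPM in uninjured cord, and Bst2, tetherin, 22.8, 13.5, 29.2 and 14.3 CPM below, against 2.18, 1.89, 2.45 and 2.72 CPM in uninjured cord. Ifit3 was highest in below 1 and 2 as well, and below 3 was the highest library for Bst2. Below 1 was the highest library in 12 of the 17 genes and below 3 in 4.

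Promoters of these genes are shown because the response is known to run through a short element, GAAANNGAA, the core of the interferon-stimulated response element. It was searched on both strands from 250 bases before to 50 after the start in RefSeq promoters of GRCm38.p6; matches may overlap each other. The element was present in 10 of the 13 interferon-response genes that had a promoter in the table, of 17 in the list, and in 9.76% of 27025 genes. In the sequences, written 5′ to 3′ on the gene's strand, capitals mark the element or, in Ifit3, its reverse complement. Ifit3 lies at chr19:34583279-34583578 on the plus strand, Bst2 at chr8:71537423-71537722 and Isg15, a ubiquitin-like modifier, at chr4:156200769-156201068, both on the minus strand.
Ifit3: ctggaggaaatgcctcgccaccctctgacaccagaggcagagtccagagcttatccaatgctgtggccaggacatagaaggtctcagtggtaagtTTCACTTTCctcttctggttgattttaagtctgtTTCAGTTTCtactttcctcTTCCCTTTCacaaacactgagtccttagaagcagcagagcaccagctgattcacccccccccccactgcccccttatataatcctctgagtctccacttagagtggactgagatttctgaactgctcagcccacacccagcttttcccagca
Bst2: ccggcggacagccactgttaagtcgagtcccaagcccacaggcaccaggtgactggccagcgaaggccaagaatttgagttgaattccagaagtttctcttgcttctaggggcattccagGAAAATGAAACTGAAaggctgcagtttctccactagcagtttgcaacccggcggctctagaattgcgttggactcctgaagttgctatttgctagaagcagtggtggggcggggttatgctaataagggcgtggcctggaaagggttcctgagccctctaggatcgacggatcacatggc
Isg15: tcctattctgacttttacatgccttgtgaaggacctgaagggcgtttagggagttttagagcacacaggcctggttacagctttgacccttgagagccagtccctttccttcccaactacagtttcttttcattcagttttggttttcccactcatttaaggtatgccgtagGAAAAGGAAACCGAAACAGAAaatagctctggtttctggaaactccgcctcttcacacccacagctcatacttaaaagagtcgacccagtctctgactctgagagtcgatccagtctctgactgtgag
In Bst2 and Isg15 neighbouring matches join in a single block, and Ifit3 has 3 separate ones. A match is a description of the letters and not a measured binding site.

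T and NK cell genes rose in 13 of 16 cases, against 23.6% of all genes, and in 11 without below 3, against 20.2%. The same shares of all genes apply to the other lists described here. Cd3e, a chain of the T cell receptor complex, had 0.676, 0.316, 0.287 and 0.307 CPM in below 1 to 4, against 0.0162, 0.0690, 0.0773 and 0.100 CPM in uninjured 1 to 4 (2.53 ± 0.45, edgeR adjusted p = 0.000499). Below 1 was the high library. With a filter of at least 1 CPM in 4 libraries 5 of these genes were tested and higher. B and plasma cell genes rose in 7 of 11 cases, and Ighm, the IgM heavy chain, had 35.6, 27.3, 10.9 and 32.9 CPM below, against 40.9, 45.9, 39.0 and 45.0 CPM in uninjured cord (-0.68 ± 0.26, edgeR adjusted p = 0.0502, and -0.42 with adjusted p = 0.0393 without below 3). Neutrophil genes rose in 8 of 10 cases: S100a8 had 8.13, 6.19, 4.04 and 3.67 CPM below, against 0.291, 0.372, 0.258 and 0.244 CPM in uninjured cord. Red blood cell genes rose in 7 of 7, with Hbb-bs, a beta globin, at 168, 105, 104 and 94.1 CPM below, against 46.2, 32.0, 17.2 and 26.1 CPM in uninjured cord. Below 1 was the highest library in all 7 red cell genes and below 4 the lowest. The summed level of the red cell list was 255 to 531 CPM below and 52.8 to 106 CPM in uninjured cord, no member was at 0 in all libraries of a group, and its part in the other immune results was not tested.

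Reactive astrocyte genes rose in all 16 of 16 cases, with a median of 2.93 (2.51 without below 3), and below 3 was the highest and below 2 the lowest library in all 16. Gfap, the astrocyte intermediate filament, had 3390.5, 2132, 7768 and 3359 CPM in below 1 to 4, against 1334, 1375, 1433 and 1417 CPM in uninjured 1 to 4. Every below library exceeded every uninjured one, and below 3 held more than the other 3 by a wide margin; the log2 fold change was 1.58 ± 0.28, and 1.09 without below 3. Serpina3n, a secreted protease inhibitor, rose by 3.62 ± 0.36 and Lcn2, lipocalin 2, by 4.80 ± 0.45. Of 13 genes of resting astrocytes 3 rose and 6 fell, against 23.6% and 15.7% of all genes, so the share that rose was near that of all genes. Without below 3, 2 rose and 6 fell, against 20.2% and 15.2%. Slc1a2, the main glutamate transporter, had 1751, 2087, 1934 and 1784 CPM below, against 2788, 2603, 2459 and 2461 CPM in uninjured cord, and fell (-0.45 ± 0.11). Slc7a10, a serine transporter, fell too (-0.99 ± 0.25), and Slc1a3, the second glutamate transporter, rose (0.66 ± 0.16). Aqp4, the water channel, had 858, 612, 2275 and 859 CPM below, against 611, 597, 563 and 556 CPM in uninjured cord; it rose with below 3 in the group (edgeR adjusted p = 0.0251) and did not pass without it (0.101), nor without uninjured 2, 3 or 4. Scaled by library totals alone, 5 members were higher and 4 lower.

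Fibroblast and fibrous matrix genes rose in all 18 of 18 cases, against 23.6% of all genes, with a median of 3.20 (2.77 without below 3). Col1a1, a chain of collagen I (mm10 chromosome 11, 94936224 to 94953042), had 179, 56.3, 314 and 159 CPM in below 1 to 4, against 6.92, 9.55, 7.44 and 8.03 CPM in uninjured 1 to 4 (4.47 ± 0.67, edgeR adjusted p = 0.000114). Below 3 was again highest and below 2 lowest. Col3a1 rose by 5.00 ± 0.81 and Postn, periostin, by 4.89 ± 0.47. Meningeal genes rose in 10 of 11 cases, led by Slc47a1, a transporter of the leptomeninges, with 8.14, 4.46, 20.2 and 27.1 CPM below, against 0.0323, 0.235, 0.0516 and 0.0717 CPM in uninjured cord. Below 4, not below 3, was the highest library there, as in 6 of the 11 meningeal genes. The summed meningeal level was 879.9 to 1369.9 CPM below and 597 to 623 CPM in uninjured cord. Meninges left on the piece and meningeal cells grown into it cannot be told apart, and the part of the one in the fibroblast result was not tested.

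Schwann cell genes rose in all 13 of 13 cases, against 23.6% of all genes, with a median of 3.91 (3.82 without below 3). Prx, periaxin, a protein of myelinating Schwann cells, had 376, 261, 397 and 314 CPM in below 1 to 4, against 1.29, 12.7, 1.41 and 4.55 CPM in uninjured 1 to 4. The groups stood far apart, but the uninjured libraries also differed among themselves, with uninjured 2 and 4 high; the log2 fold change was 6.08 ± 1.29 (edgeR adjusted p = 0.00195). Egr2, the transcription factor that drives peripheral myelin, was even in both groups, at 16.5, 10.1, 21.3 and 13.2 CPM below and 0.162, 0.290, 0.193 and 0.229 CPM in uninjured cord (6.11 ± 0.32, edgeR adjusted p = 4.69e-08). The summed level of the list was 1992 to 3227 CPM below and 152 to 232 CPM in uninjured cord. Nerve root on the piece and Schwann cells inside the cord cannot be told apart. Genes of primary sensory neurons, whose cell bodies lie in the ganglia on the roots, were called in 0 of 6 tested cases. Of all genes 39.3% were called. The summed level of these 6 was 5.02 to 7.06 CPM below and 4.80 to 5.94 CPM in uninjured cord. Scn10a, a sodium channel of nociceptors, did not exceed 0.175 CPM in any of the 8 libraries.

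Central myelin genes fell a little while those of peripheral myelin rose. Of 16 genes of myelinating oligodendrocytes 11 fell, and 14 without below 3, against 15.7% and 15.2% of all genes. The medians were -0.46 and -0.55. Mog, a surface protein of central myelin, had 111, 119, 152 and 109 CPM in below 1 to 4, against 182, 193, 179 and 184 CPM in uninjured 1 to 4 (-0.59 ± 0.10, edgeR adjusted p = 0.00037). The groups did not overlap. Below 3 was the highest below library, as in 14 of the 16 genes, and the median decrease of the list was larger without it. Mbp, myelin basic protein, had 7104, 7401, 9446 and 6767 CPM below, against 9129.8, 9173, 9218 and 9521 CPM in uninjured cord, and passed only without below 3 (edgeR adjusted p = 0.0995 with it and 0.00354 without it). Among 13 progenitor and differentiation genes 3 rose and 7 fell, against 23.6% and 15.7% of all genes. The share that rose was near that of all genes. Pdgfra and Cspg4, of progenitors, rose (0.46 ± 0.12 and 1.14 ± 0.22), as did Bmp4 (2.46 ± 0.45). Enpp6, of newly forming oligodendrocytes, fell (-0.66 ± 0.17). The lower count there was 3 scaled by library totals alone and without below 4, and 4 without below 1, uninjured 3 or uninjured 4.

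Sterol genes moved in opposite directions by function. Of 21 genes of the cholesterol synthesis list, 20 fell, against 15.7% of all genes, with a median of -1.08 and of -1.09 without below 3. Hmgcs1, which makes HMG-CoA, had 145, 187, 127 and 123 CPM in below 1 to 4, against 417, 410.0, 391 and 387 CPM in uninjured 1 to 4 (-1.46 ± 0.12, edgeR adjusted p = 1.05e-06). All 4 below libraries lay under all uninjured ones, and below 2 was the highest of the 4 in 18 of the 21 genes. Sqle, squalene epoxidase, had 37.9, 45.7, 31.6 and 33.5 CPM below, against 94.4, 90.6, 92.5 and 92.7 CPM in uninjured cord. These groups did not overlap. Genes of sterol efflux and lipid storage rose in 13 of 14 cases, against 23.6% of all genes. Abca1, the sterol exporter, had 387, 193, 1041 and 449 CPM below, against 60.5, 61.8, 62.9 and 60.1 CPM in uninjured cord. Plin2, a coat protein of lipid droplets, rose by 2.27 ± 0.35. Lysosomal genes rose in 12 of 15, with Ctsd, cathepsin D, at 3.20 ± 0.44. Of the 15, 1 fell, a share under the 15.7% of all genes. It was Atp6v1b2 (-0.59 ± 0.18), a proton pump subunit common in neurons, and scaled by library totals alone it did not pass.

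The promoter of Hmgcs1 is shown because sterol synthesis is known to be set through the sterol response element, here TCACNCCAC searched on both strands of the same windows. Capitals mark the element, in chr13:119690101-119690400 on the plus strand (GRCm38.p6).
Hmgcs1: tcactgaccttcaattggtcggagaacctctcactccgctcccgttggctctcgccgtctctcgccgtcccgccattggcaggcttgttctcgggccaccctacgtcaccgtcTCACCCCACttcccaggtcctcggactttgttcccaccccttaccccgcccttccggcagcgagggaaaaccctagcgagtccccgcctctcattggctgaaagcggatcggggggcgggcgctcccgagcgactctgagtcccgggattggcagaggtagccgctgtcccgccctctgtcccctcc
This strict form was present in 1 of the 15 list genes that had a promoter in the table, of 21 in the list, and in 1.44% of 27025 genes. No match says only that these letters are not in the window.

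Neuronal genes fell below the injury, and the size of the change turned on below 3. Of 14 general neuronal genes 9 fell, against 15.7% of all genes. Without below 3, 11 fell, against 15.2%, and 1, Gap43 of growing axons, rose (0.28). Medians were -0.73 with below 3 and -0.46 without it. Snap25, a protein of synaptic vesicle release, had 1271, 1659.5, 223 and 1277 CPM in below 1 to 4, against 2307, 2321, 2156 and 2152 CPM in uninjured 1 to 4. Every below library was under every uninjured one, and below 3 held a small part of the level of the others. The log2 fold change was -1.01 ± 0.38 (edgeR adjusted p = 0.0465), and -0.67 (adjusted p = 0.00204) without below 3, a smaller change with less spread; the call was lost without any 1 uninjured library or below 1 or 4 (adjusted p of 0.0610 to 0.0837). Below 3 was the lowest library in all 14 genes. The groups did not overlap in 13 of the 14, against 20.8% of all genes. Scaled by library totals alone 4 genes fell, and without below 4 or any 1 uninjured library 5 fell.

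Among genes of synaptic transmission and excitability no member of the 3 lists rose, and most did not pass with all libraries. Of 15 GABA and glycine genes 4 fell (9 without below 3), of 13 glutamate genes 4 (7) and of 16 ion channel genes 6 (11), against 15.7% of all genes (15.2% without below 3). Slc17a6, the glutamate transporter of most cord excitatory neurons, had 134, 169.6, 27.5 and 135 CPM in below 1 to 4, against 217, 207, 195 and 193 CPM in uninjured 1 to 4 (-0.80 ± 0.34, edgeR adjusted p = 0.0729; -0.47, adjusted p = 0.00242 without below 3). Slc6a5, the glycine transporter of inhibitory neurons, had 351, 479, 76.7 and 345 CPM below, against 603, 558, 518 and 553 CPM in uninjured cord, and passed only without below 3 (-0.51, adjusted p = 0.00386). In both, all 4 below libraries were lower than all uninjured ones, and below 3 lay far under the other 3. Gad1, which makes GABA, had 150.5, 173, 35.1 and 148 CPM below, against 182, 183, 184 and 184 CPM in uninjured cord, and did not pass with or without below 3 (edgeR adjusted p = 0.196 and 0.206). Kcna2, an axonal potassium channel, fell (-0.89 ± 0.31), and Scn1a, a sodium channel, had -1.04 ± 0.42 (edgeR adjusted p = 0.0603), and -0.68 (adjusted p = 0.000957) without below 3. Without below 2 the 3 lower counts were 11, 7 and 13, without below 4 they were 2, 2 and 3, and without uninjured 1, 2 or 4 each was 2 (3, 2 and 2 without uninjured 3).

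Motor and cholinergic genes fell in 7 of 13 cases, against 15.7% of all genes. Without below 3 the count was the same, against 15.2%. Of the 13, 1, Gfra1, rose (0.20 ± 0.07), a share under the 23.6% of all genes. Chat, which makes acetylcholine, had 16.7, 17.6, 8.60 and 12.0 CPM in below 1 to 4, against 28.5, 28.4, 26.4 and 28.7 CPM in uninjured 1 to 4 (-1.03 ± 0.20, edgeR adjusted p = 0.00116). Slc5a7, the choline transporter, had 34.2, 35.7, 44.4 and 30.9 CPM below, against 114, 103, 87.3 and 94.1 CPM in uninjured cord (-1.46 ± 0.16). Below 3 was the lowest library for Chat and the highest for Slc5a7, so the cholinergic genes did not move with it as one. Chodl, chondrolectin of fast motor neurons, was among the 12 largest decreases, with 9.92, 10.0, 2.59 and 7.59 CPM below and 32.7, 33.7, 29.3 and 29.0 CPM in uninjured cord (-2.05 ± 0.31). Oxidative phosphorylation genes of the nucleus fell in 14 of 15 cases, against 15.7% of all genes, and in 12 without below 3, against 15.2%. The amounts were small, with a median of -0.42 and Ndufs1 of complex I at -0.49 ± 0.11. Scaled by library totals alone 3 were lower.

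**Figure D4:**
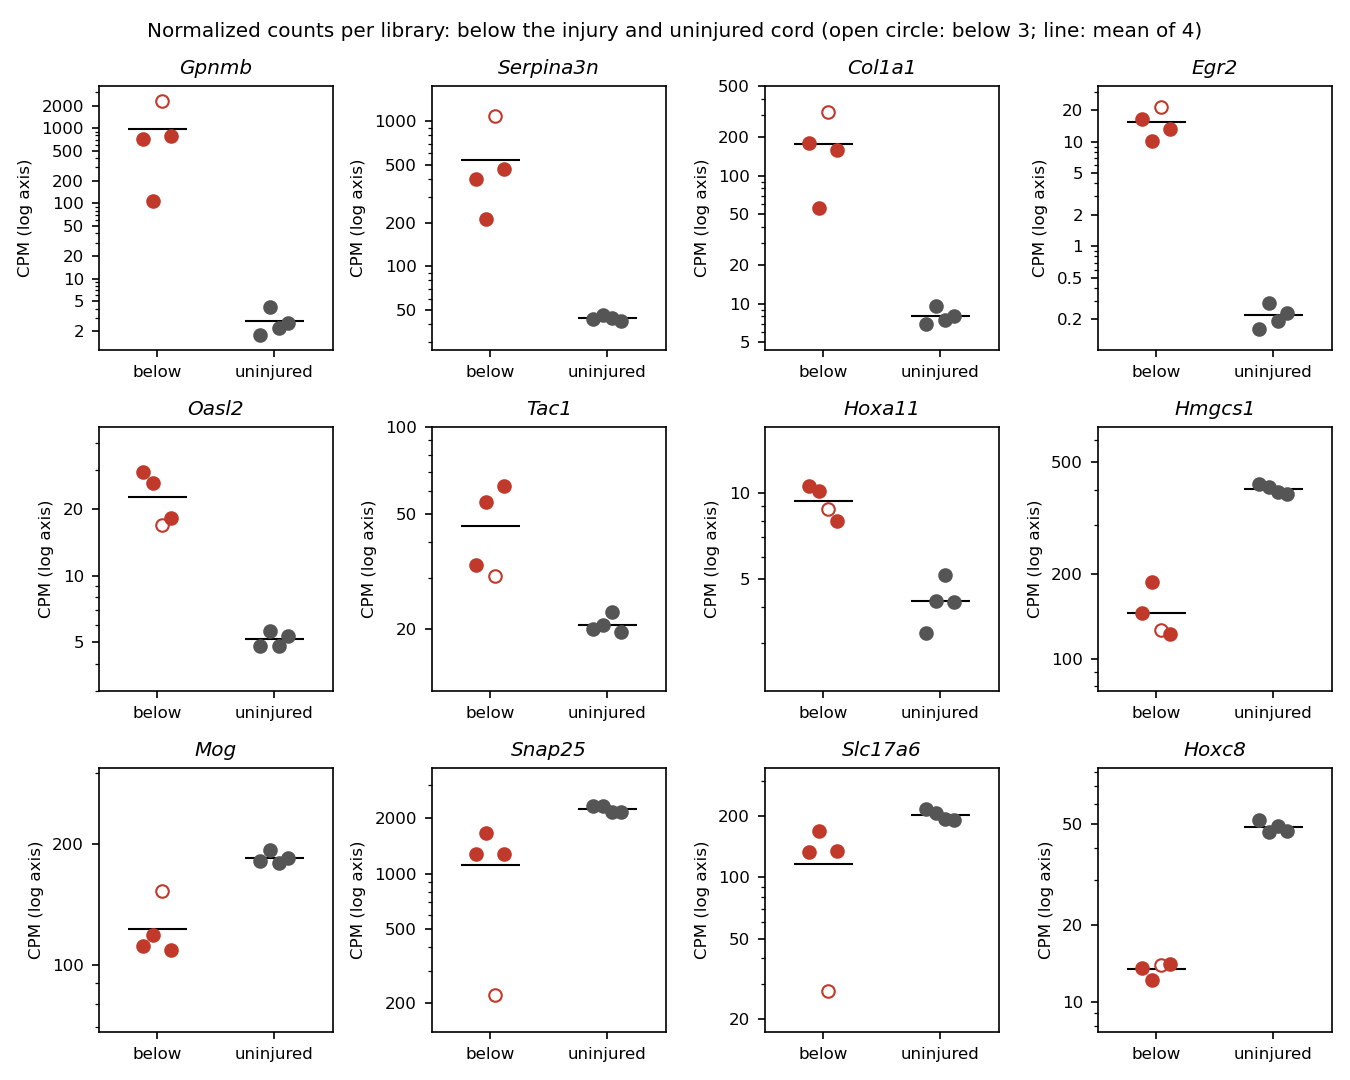
CPM on log axes in the 4 below and the 4 uninjured libraries for 12 genes, with the mean of 4 as a line and below 3 as an open circle. Gpnmb, Serpina3n, Col1a1, Egr2, Oasl2, Tac1 and Hoxa11 are higher in every below library, and Hmgcs1, Mog, Snap25, Slc17a6 and Hoxc8 lower in every one, with below 3 far apart for Gpnmb, Snap25 and Slc17a6.

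Peptide genes of the dorsal horn, where sensory input is relayed, moved in both directions, in shares near those of all genes. Of 15 members 4 rose and 3 fell, against 23.6% and 15.7% of all genes (5 and 3 without below 3, where Pdyn, prodynorphin, rose too). Tac1, which encodes substance P, had 33.3, 55.0, 30.5 and 62.6 CPM in below 1 to 4, against 20.0, 20.7, 22.9 and 19.5 CPM in uninjured 1 to 4 (1.13 ± 0.25, edgeR adjusted p = 0.00254; 1.28, adjusted p = 0.000446 without below 3). Every below library exceeded every uninjured one, below 3 included. Penk, proenkephalin, had 168, 219.8, 116 and 235 CPM below, against 105, 114, 119.8 and 115 CPM in uninjured cord, and rose (0.70 ± 0.20), with below 3 inside the uninjured range. Npy, neuropeptide Y, had 16.6, 12.9, 12.6 and 18.7 CPM below, against 8.29, 8.73, 8.93 and 9.15 CPM in uninjured cord, and Gal, galanin, 4.75, 6.04, 4.24 and 8.68 CPM below, against 3.36, 3.38, 3.83 and 3.63 CPM in uninjured cord; both rose (0.79 ± 0.12 and 0.74 ± 0.20). Cck, cholecystokinin, Tacr1, the receptor for substance P, and Gpr83 fell (-0.95 ± 0.32, -0.71 ± 0.24 and -0.72 ± 0.27), and none of the 3 passed when scaled by library totals alone; the count of 3 lower was 1 without uninjured 2 or 4 and 0 without uninjured 3. Oprm1, the mu opioid receptor, had 8.20, 10.2, 0.717 and 6.06 CPM below, against 14.9, 12.9, 12.6 and 13.1 CPM in uninjured cord, lower in every library, and did not pass (-1.09 ± 0.54, edgeR adjusted p = 0.118), nor without below 3 (adjusted p = 0.124).

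The largest decrease was that of Slc17a7, the vesicular glutamate transporter 1 (mm10 chromosome 7, 45163921 to 45176138), with 0.0877, 0.0948, 0.108 and 0.141 CPM in below 1 to 4, against 2.91, 2.50, 2.54 and 3.11 CPM in uninjured 1 to 4 (-4.67 ± 0.75, edgeR adjusted p = 0.000226). Below 3 did not stand apart, and the change was -4.67 without it. The libraries above held 6.85, 9.45, 8.29 and 8.40 CPM, more than the uninjured ones, and the epicenter 0.167, 0.249, 0.241 and 2.69 CPM, so the level was highest above the injury and lowest below it. Since the uninjured piece pools all levels, anatomical level and injury cannot be told apart in this gene. Uts2b, a peptide related to urotensin, had 0.388, 0.169, 0.980 and 0.396 CPM below, against 2.68, 2.75, 2.20 and 2.51 CPM in uninjured cord, and Vipr2, a receptor for vasoactive intestinal peptide, 1.15, 1.63, 0.621 and 1.76 CPM below, against 5.82, 5.53, 5.72 and 5.23 CPM in uninjured cord (-2.39 ± 0.39 and -2.11 ± 0.26). The others of the 12 were Aox4, an aldehyde oxidase (-2.22 ± 0.34), Aqp6, an aquaporin (-2.05 ± 0.38), Cdr1 (-2.01 ± 0.37), whose exonic bases all lie opposite another gene, Slc34a3, a phosphate transporter (-1.91 ± 0.16), Kcng1, a potassium channel subunit (-1.78 ± 0.38), Slc5a11, an inositol transporter (-1.77 ± 0.21), Frem3, a matrix protein (-1.76 ± 0.22), and the Hox gene Hoxc8.

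Hox genes mark position along the cord, and since the uninjured piece pools all 3 levels, level and injury cannot be told apart in them. Hoxc8, a thoracic-level gene (mm10 chromosome 15, 102990607 to 102994111), had 13.5, 12.1, 14.0 and 14.0 CPM in below 1 to 4, against 51.7, 46.4, 49.0 and 46.7 CPM in uninjured 1 to 4 (-1.85 ± 0.09, edgeR adjusted p = 4.69e-08). All 4 below libraries were alike, below 3 included. Of 12 thoracic-level genes 5 fell (6 without below 3, 3 scaled by library totals alone), against 15.7% of all genes. Of 11 lumbar- and sacral-level genes tested 2 rose, Hoxa11 and Hoxc12, against 23.6% of all genes, and 6 rose without below 3, against 20.2%, with Hoxa10, Hoxc10, Hoxd10 and Hoxc13. Hoxa11 had 10.6, 10.1, 8.80 and 7.98 CPM in below 1 to 4, against 3.27, 4.19, 5.20 and 4.19 CPM in uninjured 1 to 4 (1.15 ± 0.26, edgeR adjusted p = 0.00288). It did not overlap between the groups, although its antisense partner shares 35.0% of its exonic bases and rose with it. Hoxc12 had 7.97, 13.2, 2.12 and 6.46 CPM below, against 2.70, 2.76, 4.55 and 3.86 CPM in uninjured cord, with below 3 under all 4 uninjured libraries (1.10 ± 0.39, edgeR adjusted p = 0.0373, and 1.41 with adjusted p = 0.000402 without below 3). The gene did not pass without below 1, 2 or 4 or uninjured 1, 2 or 4 (adjusted p of 0.0510 to 0.140), and without any 1 of these the list count was 1. Hoxd10, at 32.9, 36.1, 16.3 and 31.6 CPM below and 16.0, 20.8, 18.6 and 17.5 CPM in uninjured cord, passed only without below 3 (adjusted p = 0.0236). Hoxc11 had 10.2, 13.8, 6.93 and 11.5 CPM below and 3.64, 4.81, 5.49 and 124 CPM in uninjured 1 to 4, so uninjured 4 stood far above the rest, and it did not pass (-1.70 ± 0.99).

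Vessel and lining cells changed by less. For the counts given here, 23.6% of all genes rose, and 20.2% without below 3. Endothelial genes rose in 10 of 14 cases (median 0.68, and 0.39 without below 3), led by Vwf, von Willebrand factor, with 97.3, 129, 231 and 99.4 CPM below, against 14.6, 16.3, 14.9 and 16.3 CPM in uninjured cord (3.17 ± 0.29). Cldn5, of the tight junction, rose by 0.66 ± 0.17, and Mfsd2a, a lipid transporter of the blood-brain barrier, did not pass (0.04 ± 0.19, edgeR adjusted p = 0.899). Of pericyte and smooth muscle genes 7 of 11 rose, and of ependymal genes 7 of 11. Without below 3, 6 and 6 rose. Below 3 was the highest below library in all 11 of each, against 83.9% of all raised genes. Proliferation genes rose in 11 of 12 cases: Mki67 had 10.6, 5.20, 15.4 and 7.84 CPM below, against 0.954, 1.43, 0.657 and 0.932 CPM in uninjured cord (3.29 ± 0.37, edgeR adjusted p = 9.88e-06).

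Of 11 genes tied to axon regeneration 8 rose and 1 fell, against 23.6% and 15.7% of all genes. The share that fell was under that of all genes. The same shares of all genes apply to the other lists described here. Sprr1a, a growth cone protein, had 16.6, 12.0, 22.8 and 14.5 CPM in below 1 to 4, against 0.0323, 0.193, 0.219 and 0.244 CPM in uninjured 1 to 4 (6.54 ± 0.37, edgeR adjusted p = 6.93e-08), and Atf3, a stress transcription factor, 21.6, 8.78, 47.4 and 21.8 CPM below, against 0.954, 1.06, 0.941 and 0.760 CPM in uninjured cord (4.74 ± 0.41). For both, every below library exceeded every uninjured one. Galr1, a galanin receptor, fell (-1.25 ± 0.38). In perineuronal nets, the matrix around fast-firing neurons, Acan, aggrecan, had 19.0, 23.6, 5.75 and 13.0 CPM below, against 38.8, 35.7, 34.2 and 38.4 CPM in uninjured cord, and fell (-1.26 ± 0.28), as did Bcan, brevican (-0.59 ± 0.11), and 5 of 10 list members in all (3 without below 4, uninjured 1 or uninjured 2), while Cd44 rose (2.29 ± 0.35). Of immediate early genes 6 of 8 rose, such as Fos (1.05 ± 0.24), and 1, Arc, made by active neurons, fell (-0.82 ± 0.16). The share that fell was near that of all genes. Skeletal muscle genes rose in 4 of 8 cases at low levels (Myh1, a myosin heavy chain, by 4.18 ± 1.23), the summed level being 4.29 to 10.8 CPM below and 3.33 to 4.06 CPM in uninjured cord, and below 4 was the highest library in 7; without it 2 were called, and with a filter of at least 1 CPM in 4 libraries 1. Of 6 fat genes 3 passed the count filter and 1, Plin4, a lipid droplet protein, rose (1.92 ± 0.40), a share near that of all genes. Adipoq, adiponectin, was at most 0.213 CPM in any of the 8 libraries.

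**Figure D5:**
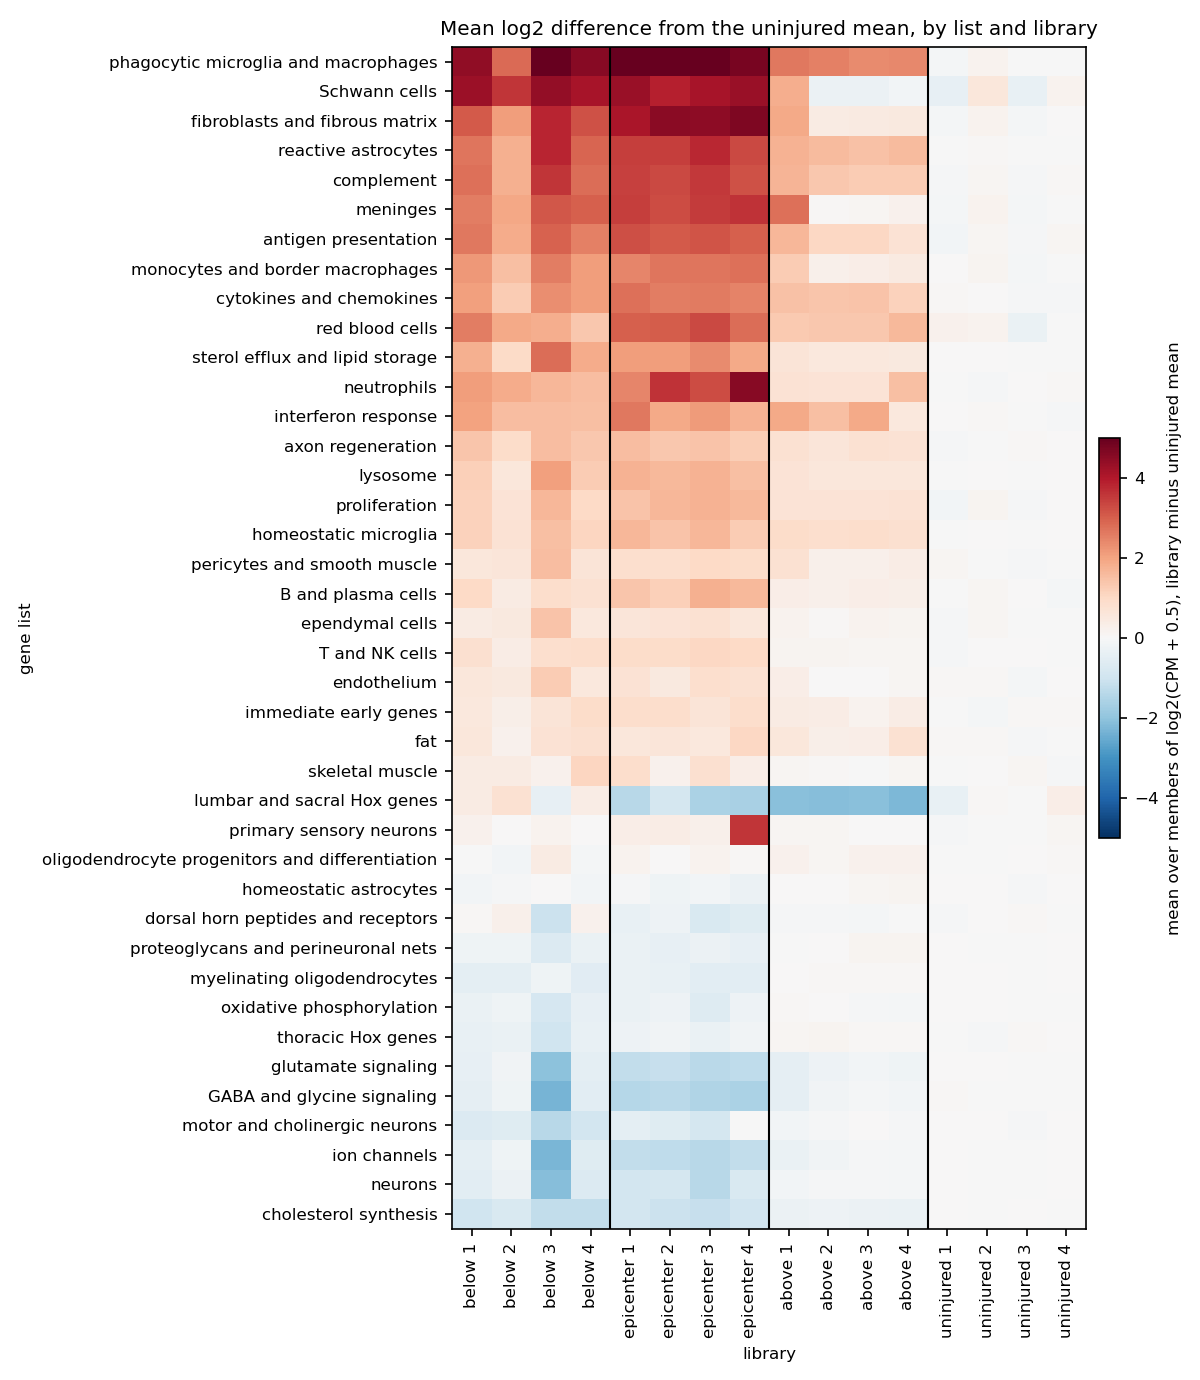
Mean over the members of each list of log2(CPM + 0.5), each library minus the uninjured mean, for 40 lists and 16 libraries; the color scale ends at 5 in either direction. In below 3 the phagocyte list stands at 5.90 and the neuron list at -2.14, in the other below libraries at 2.85 to 4.57 and -0.68 to -0.28.

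Below 3, past the epicenter on the first component, lay above it in some lists and under it in others. Phagocyte genes were higher in below 3 than in every epicenter library in 16 of 16 cases, sterol efflux and lipid storage genes in 13 of 14, lysosomal genes in 12 of 15 and reactive astrocyte genes in 11 of 16. General neuronal genes were lower in below 3 than in every epicenter library in 14 of 14 cases and ion channel genes in 13 of 16. Snap25 had 223 CPM in below 3, against 943, 1039, 633 and 1097 CPM in the 4 epicenter libraries. Of genes high at the epicenter, 14 of 18 fibroblast genes, 7 of 7 red blood cell genes and 8 of 10 neutrophil genes were lower in below 3 than in every epicenter library. Lumbar- and sacral-level Hox genes were higher in below 3 than in every epicenter library in 7 of 11 cases and lower in 2, against 11 of 11 higher in each of the other 3 below libraries. Of the 7, Hoxc12 had 2.12 CPM in below 3, against 0.0238, 0.0263, 0 and 0 CPM in the epicenter and 0, 0, 0.0114 and 0 CPM above, and Hoxa11 had 8.80 CPM in below 3, against 3.65, 4.33, 2.67 and 1.43 CPM in the epicenter and 0, 0, 0.0114 and 0 CPM above. These are values of 1 library, with no test. The shares of all genes for such counts were not computed, so how far they are particular to these lists is not known.

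Between the segment below and the epicenter 5062 genes differed (21.3%; 10.2% higher and 11.0% lower below), and 11054 (46.5%) without below 3; a fit of those 8 libraries alone called 31. Same-numbered below and epicenter libraries deviated together, and with the number as a block the 8 libraries gave 58 genes (0.244%), 10 higher (0.0421%) and 48 lower (0.202%) below. Without the pair numbered 3 the blocked fit, chosen after seeing the data, gave 9981 (42.0%). Without below 3, GABA and glycine genes were higher below in 15 of 15 cases and glutamate genes in 12 of 13, against 22.9% of all genes, and neutrophil genes lower in 10 of 10 and fibroblast genes in 16 of 18, against 23.6%. With all libraries these counts were 5, 4, 10 and 11, and with all 4 pairs blocked each was 0. Blocked without pair 3 they were 15, 11, 7 and 18, against 21.1% of all genes higher and 20.9% lower. S100a8 had 8.13, 6.19, 4.04 and 3.67 CPM below, against 10.4, 37.5, 25.8 and 93.5 CPM in the epicenter. Schwann cell genes were higher below in 1 and lower in 0 of 13 cases (0 and 1 with the block, 2 and 3 with the block and without pair 3): Prx had 376, 261, 397 and 314 CPM below, against 306, 179, 241 and 271 CPM in the epicenter (log2 difference 0.44). Against the segment above 5788 genes differed (24.4%; 15.2% higher and 9.11% lower below; the median of all genes moved to 0.12 under library totals alone), 5084 (21.4%; 11.8% higher and 9.61% lower) without below 3 and 1618 in a fit of those 8 libraries. With the number as a block 225 genes differed from the segment above. Without the block, fibroblast genes were higher below than above in 18 of 18 cases and phagocyte genes in 16 of 16. Schwann cell genes were higher in 12 of 13, and cholesterol synthesis genes lower in 20 of 21. Egr2 had 16.5, 10.1, 21.3 and 13.2 CPM below, against 2.90, 1.78, 1.55 and 1.65 CPM above (log2 difference 2.96, edgeR adjusted p = 4.81e-06). Interferon-response genes were higher below than above in 3 of 17, a share near the 15.2% of all genes. Oasl2 had 29.4, 26.3, 17.0 and 18.3 CPM below, against 31.4, 19.2, 28.9 and 9.49 CPM above, and the groups overlapped. These 2 comparisons and that with uninjured cord share the below libraries.

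Some genes set the segment below apart from all 3 other groups. By edgeR's test in each of the 3 comparisons, 116 genes (0.488%) were higher below than in the epicenter, the segment above and uninjured cord, and 132 (0.555%) were lower, and without below 3 the counts were 111 (0.467%) and 202 (0.850%), with 76 (0.320%) and 98 (0.412%) called both ways. Fits of the compared groups alone left 0 higher and 1 lower (0.00421%). With the number as a block against the epicenter, 3 of the 116 and 1 of the 132 passed there, and without the pair numbered 3 the blocked fit called 100 and 115. Of the genes already described, Tac1, Hoxa11 and Hoxc12 were among the higher ones, and Slc17a7, Uts2b, Vipr2, Aox4, Slc34a3 and Hoxc8 among the lower. Of these 9, Tac1, Hoxc12 and Hoxc8 passed against the epicenter with the block (edgeR adjusted p = 0.0497, 0.00484 and 0.0416), and the other 6 did not (0.0661 to 0.207).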

How the data were processed

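Mouse spinal cord RNA was sequenced in 16 libraries. The authors deposited raw read counts per gene (43346 rows, per the file headers), in which 37 mitochondrial rows hold 0 counts; TopHat2 2.0.12, Subread 1.4.4, edgeR and mm10 are named in the submitters' processing notes, with the annotation release, strand setting and handling of multi-mapping reads not given in the sources used here. The TruSeq v2 kit of the labels does not mark strand. All 16 libraries were fitted in 1 model with edgeR 4.0.16 under R 4.3.3. Settings were filterByExpr by group, TMM factors, the quasi-likelihood test and Benjamini-Hochberg adjustment over 23769 genes, called at 0.05. The procedure was checked on simulated counts with few changed genes, in both directions, and no outlying library. That check does not cover a response as wide and lopsided as this one, or a library like below 3. Errors of log2 fold changes are SE, the log2 fold change divided by the root of F. CPM are TMM-scaled.

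The members, the 40 gene lists (514 genes tested) and the questions were chosen with earlier results of these data known, so list counts are descriptions. Of the lists, 7 genes missed the count filter and 1 was not found by name. Named genes were the 12 highest and 12 lowest (called with and without below 3, no overlap, mean of at least 1 CPM), the first 3 of each list, members called against their list's direction, and others described with their list, which were chosen after their values were seen; some genes under this rule are not reported here. Alternatives were other scalings and filters, DESeq2 1.42.0, limma 3.58.1, other sample sets and each replicate left out. Chi-square tests of counts found no duplicate library. The labels do not say whether same-numbered libraries share a cord. Their deviations from the group means correlated at r = 0.16 to 0.42 between below and epicenter, each below library best with its own number, at -0.16 to -0.06 between below and uninjured and at -0.16 to 0.25 between below and above. The numbers were therefore treated as pairs, from the data, for below against epicenter alone, where the blocked values are given.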

Additional observations from a re-analysis of the deposited data

Results flagged for a closer look

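Of 380 groups of 4 values checked (log2(CPM + 0.5) of named genes and list means, in below and in uninjured libraries), 35 held a sample whose gap to its nearest neighbour exceeded Dixon's 95% limit for 4 values; chance gives about 1 in 20. The sample was below 3 in 23 of the 35, below 2 in 5, below 1 in 2 and an uninjured library in 5. The values given here are that gap as a share of the range.

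Below 3 was the low sample in neuronal genes: Rbfox3 (0.832), Snap25 (0.867), Gad1 (0.903), Glra3 (0.928), Slc17a6 (0.870), Gria2 (0.864), Scn1a (0.852), Cck (0.869), Galr1 (0.919) and Arc (0.876). It was low in the Hox genes Hoxb9 (0.923) and Hoxd10 (0.832) as well. The list means of GABA and glycine signaling (0.844), glutamate signaling (0.845), dorsal horn peptides (0.844) and thoracic Hox genes (0.920) singled it out in the same direction. It was the high sample for Enpp6 (0.950), Avil (0.882), Rgs5 (0.847) and Foxj1 (0.918), and for the means of the endothelial (0.916), pericyte (0.936) and ependymal (0.882) lists.

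Below 2 was the low sample for the mast cell genes Tpsb2 (0.848) and Cpa3 (0.892), for Cd74 (0.846) and H2-Aa (0.934) of antigen presentation, and for the mean of the T and NK cell list (0.893). Below 1 was the high sample for Cd3e (0.909) and for the mean of the interferon-response list (0.920). Among uninjured libraries, uninjured 1 was high for Cd200r4 (1.00), which it alone detected, by 1 count, and low for Bmp4 (0.847), uninjured 3 was low for Chat (0.893), and uninjured 4 was high for Slc5a11 (0.897) and Ccnb1 (0.952).

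By edgeR's test, the epicenter differed from the same below libraries in 5062 genes (58 with the replicate number as a block). The segment above differed from them in 5788 (225 with the block). The counts without below 3 are given above.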

How the results depend on the processing

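The increase of 5603 genes held within 1.5 times under every alternative but the replicate block, and the decrease of 3743 genes did not: 1421 fell when scaled by library totals alone, where 7615 rose, and 1811 in a fit of the compared groups alone. The comparison with the epicenter gave 5062 genes, 31 in a fit of the compared groups alone and 11496 by limma-voom with library weights, and that with the segment above gave 5788 and 1618 in a fit of the compared groups alone. Leaving out 1 library at a time gave 7443 to 11105 genes against uninjured cord, 4811 to 6147 higher and 2575 to 4958 lower, 2897 to 11054 against the epicenter (3129 without below 1, 2897 without below 2, 11054 without below 3 and 2938 without below 4) and 4334 to 8260 against the segment above.

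With the replicate number as a block, 4038 genes differed from uninjured cord (3251 higher and 787 lower), 58 from the epicenter (9981 without below and epicenter 3) and 225 from the segment above. Of 4 below libraries, 0 correlated best with the uninjured library of their own number and 1 with the above library of its own number. A shared cord of below and above libraries is not excluded by this. Of 151 named genes 121 were called, 104 of them under every alternative but the block and 90 under every one. Fits of the compared groups alone lowered neurons to 3 fallen genes, oxidative phosphorylation to 7, glutamate signaling to 0, GABA and glycine signaling to 2, ion channels to 2 and the dorsal horn list to 0. No named gene changed direction between the main fit and an alternative run where at least 1 of these called it. Changes of direction in genes called in neither were not counted. The cause of these differences was not tested. Depth limits genes near 0.0333 to 0.0457 CPM by library totals, such as lymphocyte genes in uninjured cord. The uninjured piece pools all 3 levels, so level and injury cannot be told apart, and 4 libraries a group, of which below 3 and below 2 lie far apart, set the precision.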

Other observations

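Neuropeptide genes were among those higher below the injury than in all 3 other groups. Crh, corticotropin-releasing hormone, had 10.6, 15.2, 5.62 and 18.5 CPM in below 1 to 4, against 3.61, 7.42, 1.53 and 1.45 CPM in the epicenter, 1.53, 1.15, 1.21 and 1.63 CPM above and 0.760, 0.593, 1.78 and 1.03 CPM in uninjured cord. Nms, neuromedin S, had 4.72, 6.25, 4.74 and 7.07 CPM below, against 0.977, 2.35, 0.670 and 0.698 CPM in the epicenter, 1.43, 0.962, 0.934 and 0.981 CPM above and 1.03, 1.12, 1.42 and 1.33 CPM in uninjured cord. For Nms every below library exceeded all 12 others, and for Crh below 3 lay under 1 epicenter library. Adcyap1, which encodes the peptide PACAP, had 51.0, 64.2, 41.0 and 70.7 CPM below, against 33.3, 42.1, 32.9 and 35.5 CPM in the epicenter, 25.3, 27.8, 30.2 and 28.7 CPM above and 23.5, 23.0, 24.2 and 24.0 CPM in uninjured cord. Th, tyrosine hydroxylase of catecholamine synthesis, had 9.67, 8.31, 5.23 and 8.81 CPM below, against 2.41, 3.83, 1.53 and 4.33 CPM in the epicenter, 2.09, 2.62, 2.07 and 2.62 CPM above and 4.48, 3.78, 5.04 and 4.36 CPM in uninjured cord. Every below library exceeded every other library for Th, and below 3 lay under 1 epicenter library for Adcyap1. Drp2, a protein of Schwann cells at the myelin surface, had 303, 248, 323 and 258 CPM below, against 195, 136, 192 and 147 CPM in the epicenter, 82.8, 63.8, 63.1 and 64.0 CPM above and 62.2, 67.9, 56.8 and 65.2 CPM in uninjured cord, with no overlap.

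S100b, a calcium-binding protein of astrocytes and oligodendrocytes, was lower below than in every other library, with 335, 353, 399 and 329 CPM below, against 562, 554, 502 and 555 CPM in the epicenter, 601, 596, 572 and 557 CPM above and 512, 529.8, 515 and 515 CPM in uninjured cord. Calcb, which encodes the beta form of calcitonin gene-related peptide, had 2.50, 2.14, 4.89 and 2.29 CPM below, against 8.55, 7.97, 7.21 and 23.5 CPM in the epicenter, 7.21, 8.94, 11.5 and 10.7 CPM above and 5.17, 6.30, 5.67 and 5.88 CPM in uninjured cord. With the replicate number as a block none of the 7 passed against the epicenter (edgeR adjusted p of 0.0527 to 0.103), and without the pair numbered 3 all 7 did (0.00162 to 0.0209). These genes were picked after their values were seen, and level along the cord and injury cannot be told apart in them.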
